A study of Mus musculus with 30 samples.

Results

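The comparison described here followed forelimb buds of mouse embryos under a WNT inhibitor, from 6 h to 12 h after the injection. Its members were the 3 C59 12 h and the 3 C59 6 h libraries, 6 of the 30 RNA-seq libraries of the series, and the genes were the 20569 protein-coding genes among the 50833 autosomal genes of the count table. Pregnant wild-type Swiss Albino females were injected once into the peritoneum at E10.5, either with C59 (Wnt-C59) or with DMSO as the control. Forelimb buds were collected at 5 times from 1 h to 24 h. The solutions were not matched but for the drug. C59 was given in PBS with methylcellulose, Tween and DMSO, and the controls received DMSO in PBS at a different share. The part of this in the results was not tested. There were 10 groups with 3 replicates each, and per the study's methods each replicate was RNA from 1 pair of forelimb buds. The same methods state that more than 1 pair of stage-matched buds was dissected and stored beforehand. Embryos of all groups were wild type, and no allele or transgene was involved. The drug was given to the mother, so tissues other than the limb bud were exposed too. The DMSO 12 h and DMSO 6 h libraries, 3 of each, served as the background of normal development over the same hours.

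C59 blocks Porcupine, the membrane enzyme that attaches a lipid to WNT proteins, without which WNT ligands are not secreted. WNT ligands that reach a cell stabilise β-catenin, which acts with TCF/LEF factors on target genes such as *Axin2*, a negative feedback gene of the pathway. In the limb bud, WNT signalling takes part in maintaining the apical ectodermal ridge, the distal epithelium that secretes FGFs, and FGFs maintain *Shh* in the posterior mesenchyme. WNT and FGF signals at the distal rim keep mesenchymal cells dividing and undifferentiated, whereas cells in the core activate *Sox9* and form cartilage. Muscle precursors enter the limb bud from the somites, express *Pax3* and *Lbx1*, and pass through *Myf5*, *Myod1* and *Myog* on the way to contractile muscle.

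The 6 C59 libraries held 18252021 to 24408493 counts, of which 95.6% to 96.1% fell on protein-coding genes. Over these 6 libraries the limb mesenchyme gene *Prrx1* lay between 545 and 674 CPM (counts scaled to a common library size) and the forelimb gene *Tbx5* between 206 and 326.5 CPM. The hindlimb genes *Pitx1*, at 0.389 to 1.79 CPM, and *Tbx4*, at 14.1 to 22.1 CPM, were lower. Among the libraries used as background, DMSO 6 h replicate 1 stood apart, with 98.1% of counts on protein-coding genes. Markers of sex did not divide the libraries in the usual way. The summed FPKM of 4 Y-linked genes (*Ddx3y*, *Eif2s3y*, *Kdm5d*, *Uty*) was 20.3, 19.8 and 33.2 in the C59 6 h libraries and 18.8, 0.108 and 0.417 in the C59 12 h libraries. *Xist*, the RNA of the inactive X chromosome, was at 29.5, 24.8 and 11.4 FPKM at 6 h and at 48.8, 98.4 and 78.7 FPKM at 12 h. All C59 6 h libraries and C59 12 h replicate 1 thus held both, which buds of 1 wild-type embryo would not. The number of embryos behind these replicates is therefore uncertain, and so is what n = 3 counts. The part of this difference in the results below was not tested.

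The treated limb buds changed widely within these 6 h. Of the 13389 genes that passed the filter on low counts, 2983 (22.3%) were higher and 3036 (22.7%) were lower at 12 h at an adjusted p below 0.05 (edgeR's quasi-likelihood test with Benjamini-Hochberg adjustment). In what follows, genes past that threshold are said to have risen or fallen, and genes that also changed by more than 1 on the log2 scale are said to be called. The calls were uneven in direction, with 632 genes called higher (4.72%) and 91 called lower (0.68%). The median change of the genes that rose was 0.52, and that of the genes that fell was -0.29 on the log2 scale, so the falls were many and mostly small. The 6 h and 12 h values of 621 of the 632 and 89 of the 91 called genes did not overlap, while over all tested genes 25.6% lay wholly above and 29.2% wholly below. Genes could pass the filter through the group in which they were high, which favours large changes among lowly expressed genes.

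The WNT pathway readout rose from 6 to 12 h and was still below the DMSO level. *Axin2* (chr11:108920349-108950783 in mm10) was at 29.0, 29.2 and 26.5 CPM in the C59 6 h libraries and at 38.9, 38.6 and 43.7 CPM in the C59 12 h libraries, against 104 to 118 CPM in the DMSO libraries of both times. The C59 groups did not overlap, and the change was 0.53 ± 0.07 (log2 fold change ± SE, n = 3 against 3; edgeR adjusted p = 8.35e-05). In the DMSO libraries the change was 0.01 (edgeR adjusted p = 0.922), and the difference between both courses was 0.51 ± 0.09 (edgeR adjusted p = 0.000741). Of the 22 tested WNT targets and feedback genes, 5 rose, 6 fell and 11 did not pass, with a median of -0.07 beside 0.01 over all genes, so the list did not move as one. *Sp5*, a direct WNT target, rose by 1.79 ± 0.48 from 0.147 to 0.36 CPM to 0.506 to 1.14 CPM. *Rnf43*, which removes Frizzled receptors from the membrane, and the R-spondin receptor gene *Lgr5* rose by 1.09 and 1.10. In the other direction went *Dkk1*, a secreted WNT antagonist, at 9.84, 8.19 and 10.6 CPM before and 1.63, 2.73 and 2.99 CPM after (-1.93 ± 0.20), and the TCF factor gene *Tcf7* (-1.14 ± 0.09).

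Genes for the ligands themselves mostly rose. Of 21 WNT ligand and R-spondin genes, counted with *Wls*, whose product carries the ligands, 12 rose, 2 fell and 7 did not pass. *Wls* was among those that did not pass (0.06). The median was 0.46 in C59 and 0.03 in DMSO, and 9 rose more in C59 than in DMSO by the test of the difference. *Wnt11* went from 15.1, 19.6 and 13.9 CPM to 44.0, 40.4 and 45.7 CPM (1.44 ± 0.11; edgeR adjusted p = 9.69e-07). *Wnt2* rose by 1.48, and the ectodermal ligand gene *Wnt3* by 0.94. The genes that fell were *Rspo4* (-1.80 ± 0.18) and *Rspo1* (-1.36 ± 0.20), whose products strengthen WNT signals at the receptor. Of 13 tested genes of WNT antagonists, mostly secreted, 9 rose and 1 fell, and those that rose included *Sfrp2* (1.47), *Sost* (1.23) and *Dkk2* (1.19). The list also held genes of membrane proteins, such as *Kremen1*, which rose by 0.29, and *Tmem132a*, the 1 that fell (-0.14). This count leaves out antagonist genes listed with the WNT targets above, of which *Dkk1* fell (-1.93) and *Wif1* rose (0.42).

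Ridge *Fgf8* and most genes that respond to FGF in the mesenchyme fell. *Fgf8* (chr19:45736798-45742915), the main FGF of the ridge, was at 10.9, 11.2 and 11.9 CPM at 6 h and at 2.89, 1.56 and 3.13 CPM at 12 h, while the DMSO libraries went from 32.5 to 36.4 CPM to 19.4 to 24.6 CPM. Its change was -2.17 ± 0.20 in C59 (edgeR adjusted p = 4.89e-06) and -0.60 in DMSO, with a difference of -1.59 ± 0.21 (edgeR adjusted p = 0.00011). *Etv4*, an ETS factor gene induced by FGF, was at 64.7, 61.4 and 59.9 CPM at 6 h and at 15.5, 17.1 and 16.2 CPM at 12 h, whereas DMSO libraries lay between 67.2 and 79.5 CPM at both times. The change was -1.91 ± 0.06 in C59 and 0.00 in DMSO, and the difference was -1.92 ± 0.10 (edgeR adjusted p = 5.11e-09). *Spry4*, a feedback inhibitor of FGF receptors, went from 46.9, 43.7 and 48.0 CPM to 14.9, 13.8 and 14.9 CPM (-1.65 ± 0.07). *Dusp6*, the phosphatase that inactivates ERK, went from 223, 222 and 240 CPM to 104, 102 and 99.2 CPM (-1.15 ± 0.05), and *Etv5* fell by 1.29 on the log2 scale. For the whole list, 12 of 19 tested genes fell, 4 rose and 3 did not pass, with a median of -0.47 in C59 and 0.00 in DMSO, and the difference from DMSO passed in the negative direction for 13, one of them *Spry2*, which did not pass in C59 (-0.07). Those that rose were *Fgf9* (0.63) and the receptor genes *Fgfr2* (0.49), *Fgfr3* (0.87) and *Fgfr4* (0.38). *Fgf4* did not pass the filter, at no more than 0.225 CPM in the C59 libraries of both times.

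**Figure D1:**
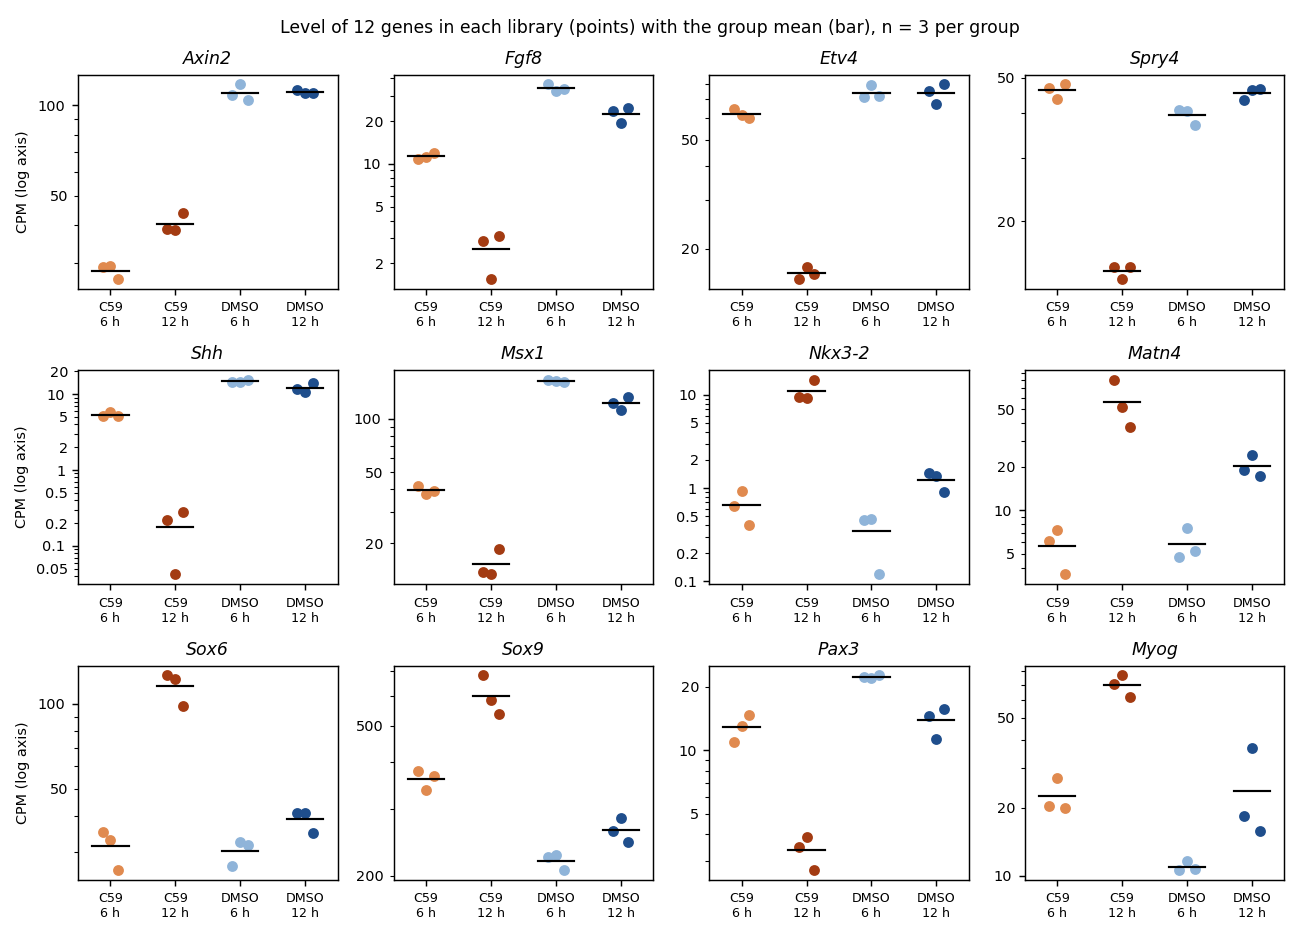
CPM on a log axis of 12 genes in each C59 and DMSO library at 6 h and 12 h, with points for the 3 libraries of a group and a bar for the group mean. *Etv4* and *Spry4* in C59 stood at 59.9 to 64.7 and 43.7 to 48.0 CPM at 6 h, and the 12 h libraries lay between 15.5 and 17.1 and between 13.8 and 14.9 CPM.

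*Shh* showed the largest decrease of the 13389 tested protein-coding genes. *Shh* (chr5:28456815-28467256), the posterior signal that sets digit number and identity, was at 5.18, 5.74 and 5.14 CPM at 6 h (120, 117 and 114 counts) and at 0.218, 0.042 and 0.276 CPM at 12 h (4, 1 and 6 counts). DMSO libraries held 14.4 to 15.5 CPM at 6 h and 10.7 to 14.2 CPM at 12 h. The change was -4.89 ± 0.35 in C59 (edgeR adjusted p = 7.61e-07) and -0.28 in DMSO (edgeR adjusted p = 0.237), with a difference of -4.62 ± 0.34 (edgeR adjusted p = 5e-07). Genes that respond to SHH moved less. *Hhip* and *Ptch1*, whose products bind SHH, had changes of -0.69 and -0.29, and *Gli1* was at 49.1 to 55.1 CPM before and 40.0 to 59.3 CPM after (-0.12 ± 0.11; edgeR adjusted p = 0.43). Of the 13 genes of the hedgehog list 6 fell, 2 rose and 5 did not pass, with a median of -0.12.

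BMP pathway genes moved in both directions. Among the genes of secreted antagonists *Bmper* rose by 2.07, *Fst* by 1.99, *Nog* by 1.75 and *Grem1* by 1.15, whereas *Bambi*, a pseudoreceptor that also dampens BMP signals, fell by 0.37. *Grem1*, which links the ridge to *Shh*, was at 8.29 to 10.001 CPM at 6 h and at 14.2 to 25.9 CPM at 12 h, against 69.7 to 79.5 CPM in the DMSO libraries. The receptor gene *Bmpr1b*, used in digit condensations, went from 29.6, 26.5 and 27.8 CPM to 59.3, 63.1 and 72.1 CPM (1.23 ± 0.08). *Msx1*, a homeobox target of BMP and WNT, fell from 41.7, 37.7 and 39.4 CPM to 13.7, 13.3 and 18.6 CPM (-1.36 ± 0.11), and *Id1* fell by 0.70, while *Id4* rose by 0.42. Among the ligand genes, *Bmp5* rose by 0.76, *Gdf6* fell (-0.52), and *Bmp4* did not pass (-0.21 ± 0.09; edgeR adjusted p = 0.0736). *Bmp2* rose by 0.33 in C59 and by 0.86 in DMSO. Of 26 tested genes 11 rose, 5 fell and 10 did not pass, with a median of 0.21.

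Patterning genes of the mesenchyme fell more often than they rose. Of 20 anterior, posterior and dorsal patterning factors 9 fell, 4 rose and 7 did not pass, with a median of -0.18, and the difference from DMSO passed in the negative direction for 8. *Sall4*, *Lhx2* and *Sall3* were called lower, at -1.17, -1.13 and -1.02, and the anterior factor gene *Alx4* fell by 0.75. *Tbx5*, the forelimb initiator, rose by 0.52 ± 0.07, and *Hand2*, which acts above *Shh*, did not pass (-0.01 ± 0.05; edgeR adjusted p = 0.901). Of 17 genes of undifferentiated limb mesenchyme 11 fell and 3 rose, with a median of -0.25. This list included *Prrx2*, at 157, 144 and 156 CPM before and 63.5, 71.7 and 66.0 CPM after (-1.17 ± 0.05), and the heterochronic genes *Lin28b* (-0.94) and *Trim71* (-1.10), which keep embryonic cells in an early state. *Hmga2*, a chromatin gene of growing embryonic tissue, fell by 0.47.

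Most *Hox* genes did not pass the test. Of 14 genes 2 rose, 1 fell and 11 did not pass. *Hoxd13*, which marks the distal autopod, was at 188 to 210 CPM at 6 h and at 149, 168 and 238 CPM at 12 h (-0.07 ± 0.13; edgeR adjusted p = 0.673). In DMSO it rose by 0.52, and the difference between both courses was -0.60 ± 0.16 (edgeR adjusted p = 0.0172). Its neighbour *Evx2* changed by 0.48 in C59 (edgeR adjusted p = 0.0126) and by 1.22 in DMSO. The C59 change of *Evx2* no longer passed without C59 6 h replicate 1 (0.45; edgeR adjusted p = 0.0561), and its change was 0.28 without C59 12 h replicate 3. Of 13 proximal limb factors 2 rose, 2 fell and 9 did not pass. *Irx1* rose by 1.61. Of 13 ridge and ectoderm factors 5 rose and 2 fell, and the count that rose was 2 without C59 6 h replicate 3 and 3 without C59 6 h replicate 1, C59 6 h replicate 2 or C59 12 h replicate 3. *Tfap2c* had changes of -1.0049 in C59 and -0.56 in DMSO.

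Cartilage genes rose. Of 27 tested chondrogenesis genes 21 rose, 2 fell and 4 did not pass, 15 were called higher, and the median was 1.15 in C59 and 0.34 in DMSO. *Sox9*, which starts the chondrogenic programme, was at 379, 338 and 367 CPM at 6 h and at 681, 584 and 538 CPM at 12 h (0.75 ± 0.07), and at 207 to 285 CPM in the DMSO libraries of both times. Its partners *Sox5* and *Sox6* rose more steeply. *Sox6* went from 35.2, 33.1 and 25.9 CPM to 126, 122 and 98.5 CPM (1.89 ± 0.11), while DMSO libraries lay between 26.7 and 41.2 CPM, and *Sox5* rose by 1.15. The groups of each of these genes did not overlap. Cartilage matrix genes rose next to them, namely *Col2a1* (1.07), *Col9a1* (1.37), *Col9a2* (2.14), *Col9a3* (2.19) and *Matn4*. *Matn4*, a matrilin of the cartilage matrix, was at 6.17, 7.36 and 3.6 CPM at 6 h and at 80.1, 51.6 and 37.5 CPM at 12 h (3.32 ± 0.27). *Papss2*, which supplies sulphate for proteoglycans, rose by 2.10, and *Cnmd*, an inhibitor of vessel growth in cartilage, by 2.39.

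*Nkx3-2* (chr5:41761483-41764501), a repressor that promotes chondrogenesis, had the largest increase of the list. It was at 0.647, 0.932 and 0.405 CPM at 6 h (15, 19 and 9 counts) and at 9.53, 9.33 and 14.5 CPM at 12 h (175, 222 and 316 counts). The change was 4.09 ± 0.28 in C59 (edgeR adjusted p = 6.08e-07) and 1.75 in DMSO (edgeR adjusted p = 0.0542), with a difference of 2.33 ± 0.60 (edgeR adjusted p = 0.0127). *Sulf1*, which edits heparan sulphate at digit tips and condensations, went from 46.1, 51.7 and 39.1 CPM to 208, 234 and 287 CPM (2.43 ± 0.12), and the difference from DMSO was 1.91. Later cartilage genes were barely detected. *Acan* did not pass the filter, with 4.58, 0.925 and 0.276 CPM at 12 h, and *Matn1*, at a mean of 0.312 CPM before and 2.4 CPM after, rose by 2.87, or by 1.90 without C59 12 h replicate 1. The difference between the C59 and DMSO courses passed for 14 of 28 tested members, all of them towards a larger rise in C59.

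Genes of the tissues that form beside cartilage rose as well. Of 11 joint interzone genes 9 rose, 1 fell and 1 did not pass, with a median of 0.57, including *Jun* (1.23), *Osr1* (0.96) and *Erg* (0.57), the last also an endothelial gene. *Gdf5*, which marks the interzone at later stages, was at 4.91 to 6.39 CPM before and at 18.1, 10.42 and 6.39 CPM after. Its change of 1.10 ± 0.29 was 0.66 without C59 12 h replicate 1. The study's staining placed *Gdf5* in the proximal interdigit before its expression in developing joints, and *Sfrp2*, also on this list, in the interdigit. Whether interzone tissue was present in these buds was not tested. Of 17 tendon and connective tissue genes 13 rose and 1 fell, with a median of 0.37 in both courses. *Ogn*, a small proteoglycan of connective tissue, rose by 3.13 ± 0.26 in C59 and by 2.05 in DMSO, and *Fmod* by 1.93, while the tendon factor gene *Scx* did not pass (0.13 ± 0.09; edgeR adjusted p = 0.265). Of 19 condensation genes 10 rose, 2 fell and 7 did not pass, with *Tnc* at 1.54, *Has2* at 0.93 and *Ncam1* at 0.75. The count that rose was 6 without C59 6 h replicate 1.

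**Figure D2:**
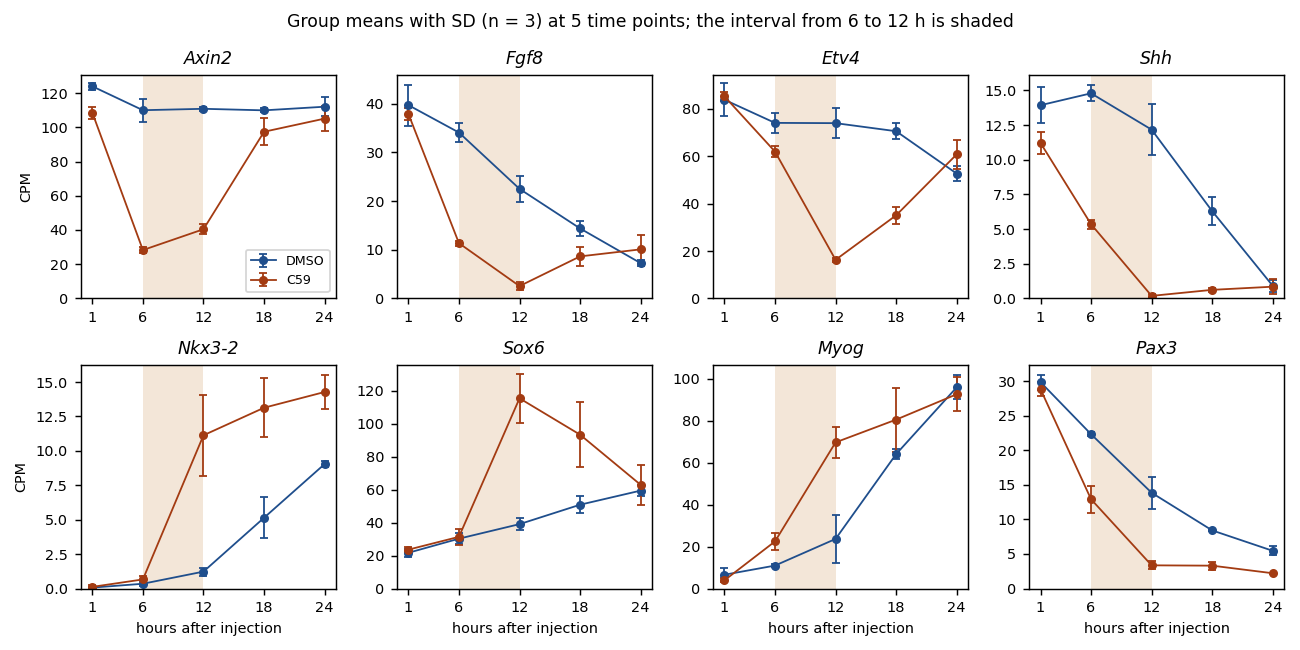
Group means of 8 genes in CPM with SD (n = 3) at 5 times (hours after the injection, horizontal axis) in DMSO and C59 limb buds, with the interval from 6 to 12 h shaded. In C59, *Shh*, *Fgf8*, *Etv4* and *Pax3* fell across the shaded interval, and *Nkx3-2*, *Sox6*, *Myog* and *Axin2* rose.

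In the muscle lineage, precursor genes fell and contractile genes rose. *Pax3*, which marks migrating precursors, was at 10.9, 13.0 and 14.8 CPM at 6 h and at 3.49, 3.87 and 2.71 CPM at 12 h (-1.92 ± 0.17), and the difference from the DMSO course was -1.25 ± 0.21 (edgeR adjusted p = 0.000573). *Lbx1* went from 33.1, 34.5 and 35.4 CPM to 13.9, 12.9 and 10.4 CPM (-1.46 ± 0.10). *Myf5* (-1.02) and *Met* (-0.88), the receptor that guides the precursors, fell as well. *Myod1*, the next factor, was at 32.98 to 41.3 CPM before and 29.8 to 43.7 CPM after (0.02 ± 0.13; edgeR adjusted p = 0.93), whereas it rose by 0.92 in DMSO from a lower level, with a difference of -0.91 (edgeR adjusted p = 0.00377). *Myog*, which commits cells to fusion, went from 20.3, 27.1 and 19.9 CPM to 70.3, 76.9 and 61.8 CPM (1.65 ± 0.11). It rose by 1.11 in DMSO, and the difference of 0.53 ± 0.32 did not pass (edgeR adjusted p = 0.273). Of the 17 tested precursor and regulatory genes 8 rose, 4 fell and 5 did not pass. In bulk tissue, fewer cells of a type and less RNA per cell cannot be told apart.

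Of 29 tested sarcomere and myotube genes 23 rose, 22 of them called, and 6 did not pass, with a median of 1.67 in C59 and 0.74 in DMSO. *Actc1*, cardiac actin, which embryonic skeletal muscle uses first, was at 2.5, 17.3 and 8.42 CPM at 6 h and at 80.8, 95.8 and 74.0 CPM at 12 h (3.20 ± 0.34). The fusion genes *Mymk* and *Mymx* rose by 1.79 and 2.97, the giant filament genes *Ttn* and *Neb* by 2.80 and 2.90, and the receptor subunit genes *Chrng* and *Chrna1* of the neuromuscular synapse by 2.54 and 2.13. The replicates at 6 h were far apart, and the difference from DMSO passed for *Chrna1* and *Acta2* among them.

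The promoters of this list are shown because many share an E-box with the letters CAGCTG, a sequence that myogenic factors of the MYOD family can bind. Promoters were the 250 bases before the RefSeq start (GRCm38.p6), searched on both strands for 12 motifs, and the sets shown were picked after the values were seen. CAGCTG stood in 11 of 23 promoters of sarcomere and myotube genes (47.8%), against 14.7% of the 10526 tested genes with a promoter entry and 14.7% of all 27025. Among all genes called higher it stood in 102 of 444 (23.0%). Other small lists varied, with 4 of 10 macrophage and blood promoters, 5 of 13 immediate early promoters and 1 of 17 Eph and ephrin promoters. CAGCTG is also a case of the general E-box CANNTG. The lines below give the E-box in capitals with the bases around it, on the gene's strand, for *Acta2* (chr19:34255530-34255575, minus strand), *Myl1* (chr1:66945255-66945300, minus strand), *Chrng* (chr1:87205659-87205704, plus strand) and *Klhl41* (chr2:69669973-69670018, plus strand).
Acta2: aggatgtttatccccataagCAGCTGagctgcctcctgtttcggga
Myl1: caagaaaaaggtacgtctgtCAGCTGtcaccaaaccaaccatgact
Chrng: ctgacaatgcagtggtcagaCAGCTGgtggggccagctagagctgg
Klhl41: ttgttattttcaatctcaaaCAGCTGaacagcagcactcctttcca
These 4 genes rose by 2.79, 2.62, 2.54 and 2.50 in C59. A match of letters is a description and does not show that a factor binds there.

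Genes of cell division fell together. Each of the 29 tested DNA replication genes fell, with a median of -0.62 in C59 and -0.07 in DMSO, where 1 of them fell, and 28 fell more in C59 by the test of the difference. *Rrm2*, the subunit of ribonucleotide reductase that limits nucleotide supply in S phase, was at 414, 399 and 420 CPM at 6 h and at 175, 189 and 201 CPM at 12 h (-1.11 ± 0.05). *Cdc6*, which licenses replication origins, went from 74.2, 70.9 and 74.4 CPM to 34.4, 32.9 and 36.2 CPM (-1.07 ± 0.06), while DMSO libraries lay between 78.3 and 84.4 CPM. These groups did not overlap, and *Pcna*, the sliding clamp, fell by 0.86. The smallest fall of the list was that of the helicase gene *Mcm6* (-0.24 ± 0.04). Of 30 mitosis and spindle genes 29 fell, with a median of -0.43, and *Nusap1* did not pass (-0.07 ± 0.06; edgeR adjusted p = 0.402). *Bub1*, of the spindle checkpoint, fell by 0.78, as did *Plk1* (-0.62) and *Mki67* (-0.26), and 23 members fell more in C59 than in DMSO. *Cdkn1c*, a brake on cyclin-dependent kinases, rose from 323, 339 and 322 CPM to 599, 562 and 480 CPM (0.75 ± 0.07), and *Rb1* and *Cdkn1a* rose by 0.54 each. Of the 21 tested *Myc* genes, cyclins and kinase inhibitors 8 rose, 5 fell and 8 did not pass. *Ccnd1*, the cyclin of the first growth phase, fell by 0.24.

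The replication promoters are shown for the letters TTCCCGC, which E2F factors can bind, present in 7 of 22 (31.8%) against 8.02% of the tested genes and 4.38% of all genes. The lines give the match in capitals, on the gene's strand, for *Cdc6* (chr11:98907993-98908039), *Uhrf1* (chr17:56303269-56303315), *Chaf1a* (chr17:56040349-56040395) and *Rrm1* (chr7:102441608-102441654), all on the plus strand. In *Cdc6* the match is on the opposite strand and reads GCGGGAA.
Cdc6: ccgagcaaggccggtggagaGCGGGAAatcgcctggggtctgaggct
Uhrf1: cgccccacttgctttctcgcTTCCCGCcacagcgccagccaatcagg
Chaf1a: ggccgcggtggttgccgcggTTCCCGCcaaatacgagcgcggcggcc
Rrm1: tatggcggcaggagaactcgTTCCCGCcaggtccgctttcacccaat
*Uhrf1*, *Chaf1a* and *Rrm1* fell, with log2 fold changes of -0.88, -0.70 and -0.61.

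Genes of biosynthesis fell with those of division. Of 21 ribosome biogenesis genes 19 fell, with a median of -0.36, and *Rrs1* and *Noc2l* did not pass. *Fbl*, the methylase of ribosomal RNA, was at 205 to 216 CPM before and 140 to 151 CPM after (-0.51 ± 0.04), and 13 members fell more in C59 than in DMSO. Of 20 cholesterol synthesis genes 17 fell, with a median of -0.56 in C59 against 0.18 in DMSO, where 2 rose, and the difference passed in the negative direction for 18. *Insig1*, the sterol-sensing retention factor, went from 50.5, 52.3 and 48.7 CPM to 25.4, 26.2 and 29.2 CPM (-0.89 ± 0.07), while it changed by 0.39 in DMSO (edgeR adjusted p = 0.0577), a difference of -1.29 ± 0.13. *Idi1*, an isomerase of the pathway, fell by 0.93. The letters CCAAT stood in 12 of 12 cholesterol promoters, in 20 of 25 mitosis promoters (80.0%) and in 15 of 22 replication promoters (68.2%), against 40.1% of tested and 37.5% of all genes. They were not particular to lists that fell, with 11 of 15 clock promoters (73.3%) and 6 of 9 erythroid promoters (66.7%). Ribosome biogenesis promoters held them in 5 of 17 (29.4%). The sterol element TCACNCCAC stood in 1 of 12 cholesterol promoters. The lines give the match in capitals for *Idi1* (chr13:8885572-8885605, plus strand), *Insig1* (chr5:28071176-28071220, plus strand), *Msmo1* (chr8:64733609-64733653, minus strand) and *Lss* (chr10:76531523-76531567, plus strand). Where the capitals read ATTGG, the match is on the opposite strand.
Idi1: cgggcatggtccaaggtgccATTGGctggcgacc
Insig1: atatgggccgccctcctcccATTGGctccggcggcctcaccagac
Msmo1: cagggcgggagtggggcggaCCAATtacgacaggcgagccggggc
Lss: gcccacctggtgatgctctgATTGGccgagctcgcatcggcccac
*Msmo1* and *Lss* fell, with log2 fold changes of -0.70 and -0.63 in C59.

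**Figure D3:**
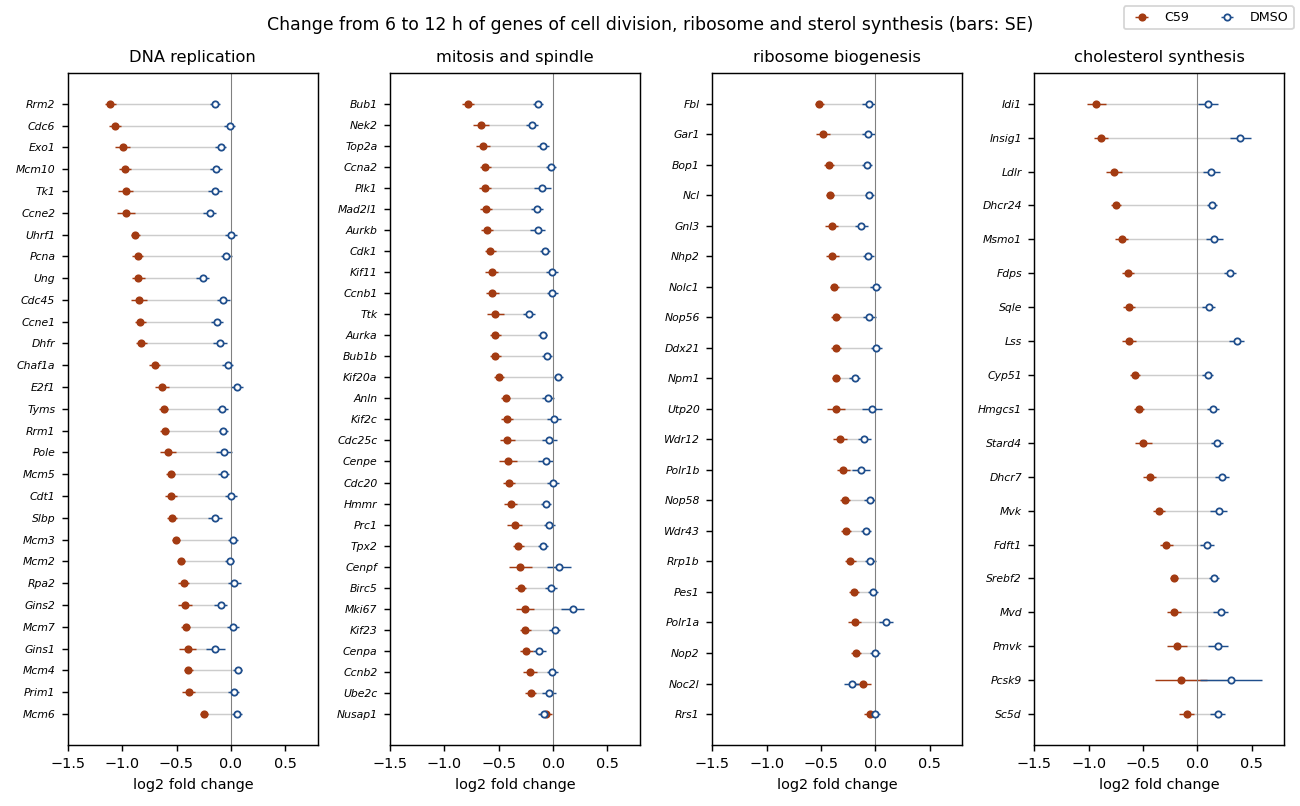
Log2 fold change from 6 to 12 h (bars: SE) of genes of DNA replication, mitosis, ribosome biogenesis and cholesterol synthesis, with filled points for C59 and open points for DMSO. Each of the 29 replication genes lay below 0 in C59, and the DMSO points lay near 0, with a median of -0.07.

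Other lists of stress and growth differed in direction, and are given beside the 22.3% of all tested genes that rose and the 22.7% that fell. Of 13 heat shock protein genes 10 fell and 2 rose, with *Hsp90aa1* and *Hspd1* at -0.67. Of 19 amino acid response genes 8 fell, among them *Mthfd2* (-1.10), *Psat1* (-0.91) and *Asns* (-0.90), and *Trib3* rose by 0.78. Of 23 glycolysis and hypoxia genes 9 fell, led by *Ldha* (-0.63), 3 rose and 11 did not pass. Of 19 p53 response genes 6 rose, led by *Trp53inp1* (0.75), 3 fell and 10 did not pass. Of 16 immediate early genes 3 rose and 2 fell. The p53 response and immediate early counts lay near the shares of all tested genes. Of 19 growth factor and imprinted growth genes 14 rose and 2 fell, most by small amounts, with *Igfbp5* at 0.59.

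Further signalling lists are given beside the 22.3% of all tested genes that rose. Of 15 retinoic acid genes 8 rose, 3 fell and 4 did not pass, and the count that rose was 5 without C59 6 h replicate 2 or replicate 3. *Aldh1a2*, which makes retinoic acid and is expressed in proximal and interdigital mesenchyme, was at 9.71, 16.7 and 10.45 CPM before and 51.6, 57.2 and 66.7 CPM after (2.28 ± 0.16), with a difference from DMSO of 1.65 ± 0.33. *Crabp1*, a carrier of retinoic acid, fell from 102, 110 and 127 CPM to 38.7, 39.9 and 35.4 CPM (-1.56 ± 0.08). Of 16 TGF-β and activin genes 8 rose and 8 did not pass, with a median of 0.45. *Inhba*, the activin subunit, was at 1.23 to 1.73 CPM before and 8.34 to 9.5 CPM after (2.59 ± 0.17), and it also rose in DMSO (1.70), where the difference did not pass (edgeR adjusted p = 0.101). Of 16 Notch genes 7 rose, led by *Dll3* (1.34) and *Dll1* (1.00), and 1 fell. Of 18 Eph and ephrin genes 7 rose and 3 fell, with *Efna1* at 1.01 and *Epha2* at -0.72. Of 18 clock genes 5 rose, a share near that of all tested genes, and 1 fell, with *Dbp* at 0.88, and the count that rose was 3 without C59 6 h replicate 1 or C59 12 h replicate 1.

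**Figure D4:**
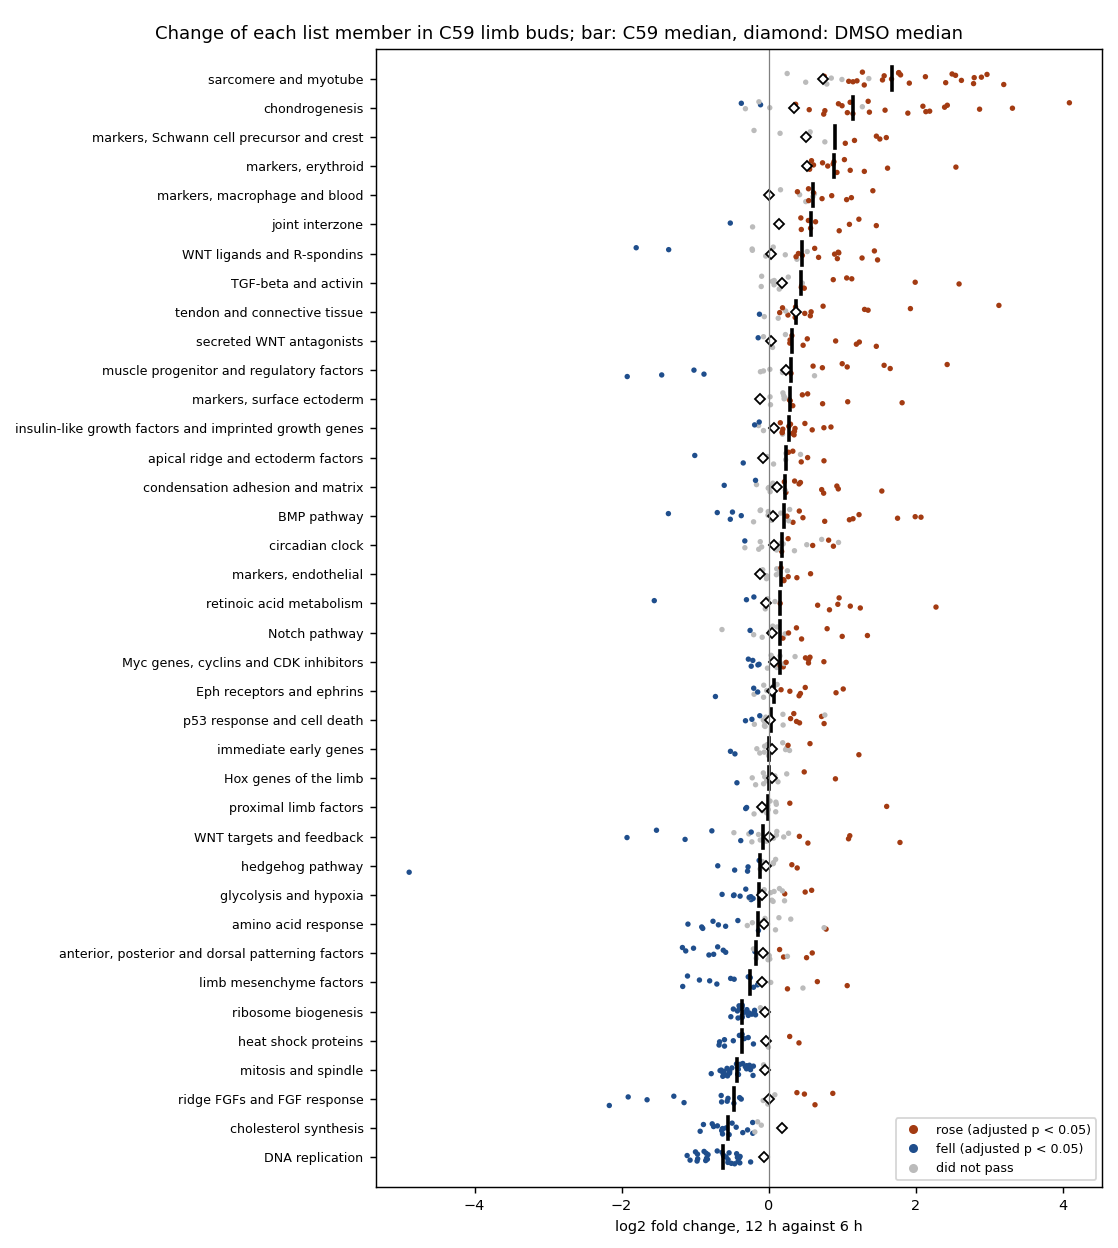
Log2 fold change from 6 to 12 h in C59 of each tested member of 38 gene lists, coloured by whether it rose, fell or did not pass, with a bar for the C59 median and a diamond for the DMSO median. Sarcomere and chondrogenesis genes stood highest, with C59 medians of 1.67 and 1.15, and DNA replication genes lowest, with a median of -0.62.

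Markers of cells that do not form limb skeleton or muscle moved in the same interval. The 13 tested erythroid genes rose, with a median of 0.89 in C59 and 0.52 in DMSO, and their summed level went from 3371 to 4454 CPM at 6 h to 6882 to 9852 CPM at 12 h. *Hba-a2* was at 0 to 0.270 CPM, and since it is nearly identical to *Hba-a1* their reads may not have been separated. Of 14 macrophage and blood genes 9 rose, with sums of 60.0 to 74.6 CPM before and 96.05 to 101 CPM after. Of 10 Schwann cell precursor and crest genes 5 rose, with sums of 54.4 to 73.2 and 114 to 157 CPM. Of 14 surface ectoderm genes 8 rose, with sums of 428.7 to 431.6 and 520.1 to 716.5 CPM, among them *Krt14* (1.82). Of 14 endothelial genes 6 rose, with sums of 592.6 to 614.5 and 631 to 691 CPM. Their part in the changes of the other lists was not tested.

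The same interval in DMSO limb buds moved fewer genes. Of 13033 tested genes 278 rose (2.13%) and 109 fell (0.836%), and 48 (0.368%) and 13 (0.0997%) were called. The 48 were 19 without DMSO 6 h replicate 1, 21 without DMSO 6 h replicate 3 and 24 without DMSO 12 h replicate 2. Over the 12959 genes tested in both courses the median absolute change was 0.203 in C59 and 0.0918 in DMSO on the log2 scale. The changes of both courses were related across genes (Pearson r = 0.467, Spearman rho = 0.423), with no library in common, though genes are not independent replicates.

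Genes called in C59 mostly leaned the same way in DMSO. Of the 632 called higher, 501 were tested in DMSO, 448 of these had a positive change there and 78 rose, with medians of 1.35 in C59 and 0.48 in DMSO. Of the 91 called lower, 89 were tested in DMSO and 65 had a negative change, 15 fell and 3 rose there, with medians of -1.25 and -0.20. Conversely, 34 of the 48 genes called higher in DMSO rose in C59, with a median of 1.30 there and 1.25 in DMSO. Of the 13 called lower in DMSO, 9 were tested in C59 and 4 fell, with medians of -0.80 there and -1.44 in DMSO. The difference of both changes was tested directly on 13565 genes, as the interaction of drug and time. It was positive for 894 (6.59%) and negative for 1564 (11.5%), and 184 (1.36%) and 72 (0.531%) also passed 1 on the log2 scale. Without DMSO 6 h replicate 1 these last counts were 167 and 64. Of the genes called in C59, it passed in the same direction for 210 of 626 called higher and for 58 of 91 called lower, and it shares the C59 libraries with those calls.

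**Figure D5:**
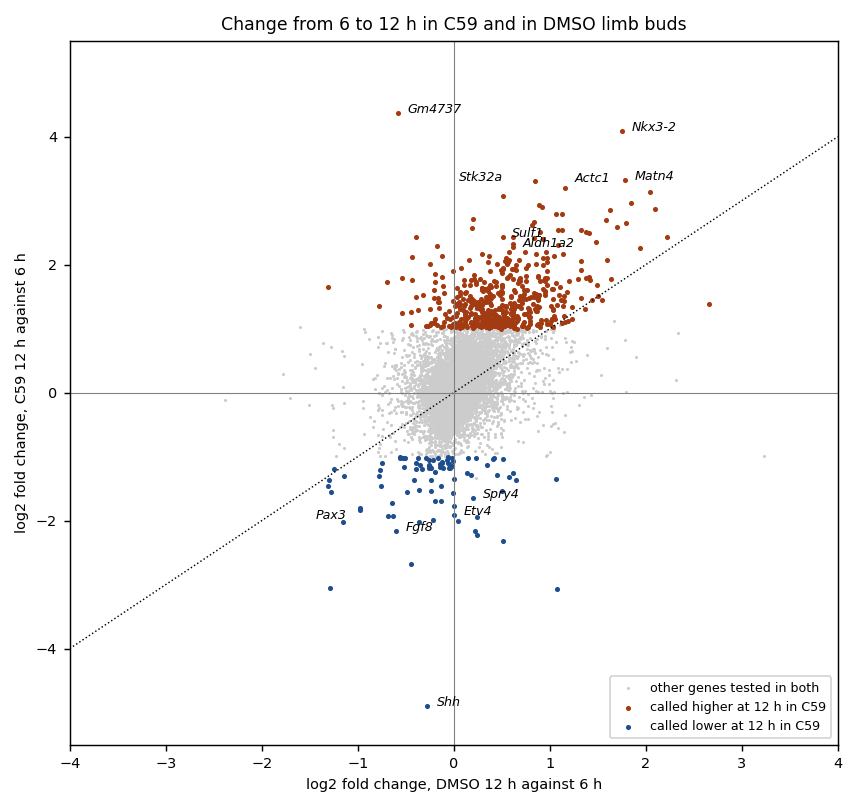
Log2 fold change from 6 to 12 h in C59 (vertical) against that in DMSO (horizontal) for the genes tested in both, with called genes coloured, a dotted line of equal change and 1 gene beyond the horizontal axis. The genes called higher had medians of 1.35 in C59 and 0.48 in DMSO, and *Shh* stood at -4.89 against -0.28.

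Among genes called without overlap at a mean of 1 CPM or more over the 6 C59 libraries, the largest increases outside the lists were those of *Cntnap3* (5.29), *Gm4737* (4.36), *Stk32a* (3.31), *Rxfp3* (3.27), *Wdr72* (3.24) and *Slc44a5* (3.13). *Cntnap3*, a neurexin-family adhesion gene, was at 0.129, 0.196 and 0.045 CPM before (3, 4 and 1 counts) and 2.89, 5.34 and 6.48 CPM after, and its difference from DMSO did not pass (edgeR adjusted p = 0.147). *Gm4737* was at 0.856 to 1.21 CPM before and 34.2, 17.7 and 14.1 CPM after, while DMSO libraries lay between 1.10 and 2.30 CPM. Under the same limits, the largest decreases outside the lists were those of *Gbx2* (-3.05), *Vwde* (-2.68), *Gm9008* (-2.23), *Evx1* (-2.16), *Rprml* (-2.03), *Slit1* (-2.0045) and *Gm14226* (-1.94). *Evx1*, a homeobox gene, went from 13.0, 14.2 and 10.54 CPM to 2.94, 1.85 and 3.63 CPM. *Gm9008* rested on uneven replicates, at 5.45, 0 and 0.184 CPM at 12 h, and its change was -6.42 without C59 12 h replicate 1. Its call was lost without each of the other 5 C59 libraries (edgeR adjusted p from 0.053 to 0.0911). *Ctse*, an aspartic protease gene outside these limits, fell by 3.07 in C59 and rose by 1.07 in DMSO, a difference of -4.15 ± 0.50.

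Among the 1982 tested genes not annotated as protein-coding, 135 were called higher (6.81%) and 41 lower (2.07%), in a fit of all autosomal genes. Those called higher were led by 40 lincRNAs and 33 antisense RNAs, and those called lower by 18 processed pseudogenes. The authors ran Cufflinks with the setting for unstranded libraries, so reads of an antisense RNA and its partner may not have been told apart. The lincRNA *Gm42047* (chr8:121833247-121841178) was at 1, 0 and 1 counts at 6 h and 184, 774 and 654 counts at 12 h, and at 0 in the DMSO libraries of both times. The pseudogene *Gm11585* (chr11:102124072-102124640) was at 0 in each C59 6 h library and at 2.23, 2.48 and 3.72 CPM at 12 h, at least 65-fold higher against a floor of 3 counts over the group, and at 4.90 to 8.70 CPM in DMSO. *Hmgb1-ps7* went from 24.0, 30.2 and 28.2 CPM to 0.381, 0.715 and 1.24 CPM, while DMSO libraries lay between 52.4 and 63.6 CPM. *Gm46432*, *Gm18194* and *Gm15387* fell as well, with log2 fold changes of -4.15, -3.63 and -3.44. Processed pseudogenes are near copies of expressed genes, so the origin of these reads is uncertain.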

How the data were processed

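RNA of forelimb buds was sequenced as polyA-selected libraries of paired reads. The authors trimmed reads with Cutadapt 1.16, aligned them to mm10 with STAR 2.7.0e and ran Cufflinks 2.2.1, and deposited raw counts per autosomal gene and FPKM values per gene (fragments scaled to gene length and library size). Per the study's methods, counts came from STAR. Cufflinks was run as for unstranded libraries, and the strand setting of the counts is not given in the sources used here. Of 50833 count genes, 50628 matched GENCODE M21 and 20569 were protein-coding. CPM were scaled by TMM factors over the 30 libraries. Counts were filtered with filterByExpr (minimum count 10) and tested with edgeR 4.0.16 (R 4.3.3), quasi-likelihood with Benjamini-Hochberg adjustment, on the 6 libraries of a course, or on 12 for the interaction. Genes were called at an adjusted p below 0.05 where the log2 fold change was also beyond 1 in size. The code was tested on simulated data. Alternatives used DESeq2 1.42.0, limma 3.58.1 on log2(FPKM + 1), other filters, factors and left-out libraries. Named genes were *Axin2*, the 10 largest increases and decreases called without overlap at a mean of 1 CPM or more, the leading members of each list, the 6 largest interactions each way and 6 non-coding genes. Members and lists were chosen with earlier results of these data known. The labels do not tie libraries to litters, so p-values measure the spread between these samples. X, Y and mitochondrial genes were present as FPKM alone and were not tested.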

Additional observations from a re-analysis of the deposited data

Results flagged for a closer look

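The results below drew attention because the change from 6 to 12 h differed between C59 and DMSO limb buds by the test of the interaction (edgeR's quasi-likelihood test, Benjamini-Hochberg adjusted p below 0.05) and by more than 1 on the log2 scale. Each value is the C59 change minus the DMSO change. Only the named genes and the leading members of each list by C59 change were looked at. Other list members also met this rule, such as *Chrna1* (2.24), *Sox6* (1.51) and *Myf5* (-1.17), so absence here does not mean that the courses were alike.

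Among signalling and patterning genes the difference was negative for *Shh* (-4.62), *Evx1* (-2.39), *Rspo1* (-2.01), *Etv4* (-1.92), *Spry4* (-1.87), *Gbx2* (-1.77), *Fgf8* (-1.59), *Etv5* (-1.47), *Dkk1* (-1.30), *Dusp6* (-1.14) and *Crabp1* (-1.08). It was positive for *Sp5* (2.31), *Aldh1a2* (1.65), *Wnt2* (1.64), *Nog* (1.64), *Bmper* (1.38), *Sost* (1.31), *Rnf43* (1.28), *Wnt11* (1.22), *Fst* (1.21), *Bmpr1b* (1.10), *Sfrp2* (1.08) and *Grem1* (1.02). *Hoxc10* also had a positive difference (1.35), although its C59 change did not pass without C59 12 h replicate 3 (0.77, edgeR adjusted p = 0.0523).

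In the skeletal and muscle lists it was positive for *Nkx3-2* (2.33), *Sulf1* (1.91), *Acta2* (1.65), *Matn4* (1.52), *Cnmd* (1.45), *Fmod* (1.41) and *Col9a3* (1.22), and negative for *Lbx1* (-1.33) and *Pax3* (-1.25). Among genes of growth it was negative for *Insig1* (-1.29), *Cdc6* (-1.07) and *Idi1* (-1.04) and positive for *Trib3* (1.54). Among markers of other cells it was positive for *Adgre1* (1.58), *Hbb-bs* (1.21) and *Krt14* (1.05).

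Outside the lists it was positive for *Gm4737* (4.94), *Wdr72* (2.76), *Slc44a5* (2.76), *Rxfp3* (2.56), *Ano2* (2.55) and *Stk32a* (2.45), and negative for *Ctse* (-4.15), *Dmbx1* (-2.43), *Vwde* (-2.24), *Gm14226* (-2.20) and *Slit1* (-2.06). *Rp1l1* had a fitted difference of 12.2, which is no estimate of size: it was at 138, 152 and 189 counts in the DMSO 6 h libraries, at 0 in the DMSO 12 h libraries and at 0 in the C59 libraries except for 1 count in C59 12 h replicate 3.

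In data outside the count table, the summed FPKM of *Ddx3y*, *Eif2s3y*, *Kdm5d* and *Uty* was 20.3, 19.8 and 33.2 in the C59 6 h libraries, above the DMSO 6 h libraries, which were at 0.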

How the results depend on the processing

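Calls in C59 depended mostly on how the minimum fold was applied. The 632 genes called higher and 91 called lower were 2983 and 3036 with no minimum fold, 115 and 17 with glmTreat, whose null hypothesis is a change within the fold limit, and 127 and 26 with limma on log2(FPKM + 1), where the pseudocount shrinks changes of low genes. A fit of all autosomal genes called 137 lower. Leaving out 1 library gave 577 to 701 and 85 to 107. For DMSO it gave 19 to 44 higher and 9 to 16 lower. The difference between courses held 894 and 1564 genes with no minimum fold in place of 184 and 72, and 150 to 259 and 57 to 86 without 1 library. Non-coding calls of 135 and 41 were 55 and 26 at a mean of 1 CPM or more, and 105 to 137 and 35 to 45 without 1 library. Apart from the reasons given, the cause was not tested.

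To look for pairing, the group mean of each gene was subtracted from its log2 CPM, and the deviations left were correlated between libraries. These deviations were hardly correlated between same-numbered C59 libraries (0.00809, 0.00527 and 0.0364). Those of C59 6 h replicate 2 correlated best with those of C59 12 h replicate 1 (0.0309). Values were -0.00659, 0.104 and 0.0548 between DMSO 6 h and DMSO 12 h. Between C59 and DMSO they were -0.015, -0.0198 and -0.0232 at 6 h and 0.0422, 0.0927 and 0.148 at 12 h. The numbers were not taken as pairs, though a weak link at 12 h is possible. A replicate block gave 631 and 93 calls in C59, 56 and 17 in DMSO, 193 and 76 for the difference and 136 and 39 for non-coding genes. Of 4017 values of 237 named genes under the alternatives, 3728 kept direction and side of the threshold, 255 no longer passed the adjusted p, 33 newly passed it and 1 reversed. The reversed value was that of *Irx5*, which lay between -0.05489 (without C59 12 h replicate 1; edgeR adjusted p = 0.71) and 0.2144 (without C59 12 h replicate 3). Of the changed values, 174 came from glmTreat. The median change of all genes was 0.00968, and 0.0787 with upper-quartile factors. With 3 libraries a group, genes near the filter, such as *Acan* and *Fgf4*, were beyond what this depth can compare.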
